A study of Mus musculus with 24 samples.

Results

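The genes described here make up the DNA replication machinery and its supply of nucleotides: 43 genes of the 19351 that the arrays measured. They were chosen by name for roles in the helicase, polymerases, origin licensing, clamp loading, nucleotide synthesis and the chromatin work that follows the fork. Earlier results of these data were known when the choice was made. All 43 had a probe set assigned to that gene alone. For a gene with several such probe sets, the brightest on average was used. The samples are C57BL/6J mouse embryos with no genetic change or treatment, hybridised to Affymetrix Mouse Gene 1.0 ST arrays in 3 groups of 8: pleuroperitoneal folds (the primordial diaphragm) at E11.5, the same folds at E12.5, and the muscularised diaphragm at E16.5. Tissue was taken by laser capture, from transverse cryosections at E11.5 and E12.5 and from sagittal ones at E16.5, so that the plane of section and the stage cannot be told apart at the later step. Values are log2 intensities after RMA, which corrects background, equalises the arrays' distributions and summarises the probes of a gene, and n = 8 arrays per stage holds throughout unless another number is given. The labels do not say which embryo each sample came from, and the p-values therefore measure the spread between these samples, which may be partly technical.

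Before a cell divides it copies its genome once. In G1, Cdc6 and Cdt1 help to load the ring of Mcm2 to Mcm7 onto origins, and in S phase Mcm10 and the GINS complex help to turn that ring into the moving helicase. Primase and polymerase alpha start each strand, the clamp Pcna and its loader hand the work to polymerases delta and epsilon, Fen1 and Lig1 join the lagging-strand fragments, and ribonucleotide reductase and the thymidylate enzymes supply the building blocks. In embryonic muscle, proliferating progenitors leave the cell cycle as they differentiate into fibres, and many of these genes are known targets of E2F transcription factors, which are active in cycling cells.

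Signals of these genes were judged against each array's own quartile and median, which are not a detection limit. An array's lower quartile over all genes lay between 6.40 and 6.64 and its median between 7.45 and 7.57. No replication gene fell below an array's own lower quartile at E11.5 or E12.5, and 1 did at E16.5, Pole2, on 1 array. Cdt1, Fen1 and Chaf1b lay below the array median on over 4 of the 8 E16.5 arrays, in the dimmer part of the scale. The E16.5 arrays stood apart in 2 sets, replicates 1 to 4 and replicates 5 to 8, for which the labels give no reason. For genes given with readings at every stage, a call between stages that changed without either set has that value beside it. Counts by role use all arrays, and other genes within them may have changed their call without a mark.

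The promoters of the genes are shown first, because many of them share a short sequence that was not used to choose them. Promoter windows of 300 bases, from 250 before to 50 after the annotated start (RefSeq, GRCm38.p6), were held for 35 of the 43 genes. Those without one were Mcm4, Gmnn, Gins1, Gins2, Gins4, Rfc2, Prim2 and Pole. Both strands were searched for the E2F core, which was spelled TTCCCGC in its first form, with TTCGCGC as the second, TTGCCGC as the third and TTGGCGC as the last, for CCAAT, and for the cell cycle homology region (CHR) TTTGAA, an element known from genes of G2 and mitosis. A gene counted as matched when any of its windows held the letters. The reverse of CCAAT shares 4 letters with TTGGCGC, and a CCAAT match overlapped an E2F match in 3 of the 35 genes.

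An E2F match was present in 25 of the 35 replication genes (71.4%), against 14.8% of the 15436 measured genes with a window and 12 of 27 (44.4%) of the other origin and fork genes described later. CCAAT was found in 22 of the 35 (62.9%), against 41.7% of measured genes, and CHR in 5 (14.3%), against 17.2%. The mitosis list described later had the reverse pattern, with E2F matches in 3 of 20 genes (15%) and CHR matches in 14 (70%). Median GC content was 60% in the replication genes' windows and 57.7% in those of all measured genes. A match is a description of these letters and not evidence that a factor binds there.

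**Figure D1:**
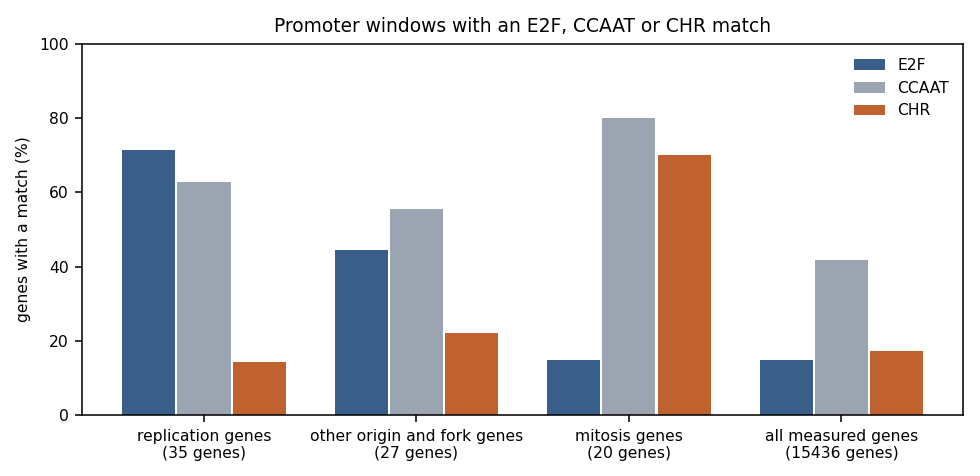
Percentage of genes with at least 1 match to each motif in their promoter windows, for the replication genes, the other origin and fork genes, the mitosis genes and all measured genes. E2F matches were found in 71.4% of the replication genes, 44.4% of the other origin and fork genes and 15% of the mitosis genes, and CHR matches in 14.3%, 22.2% and 70%.

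The 7 promoters printed here are those of 4 genes with large falls at E16.5 and a single window (Chaf1b, Chaf1a, Rfc3 and Mcm6), of Dtymk, the 1 gene that rose between E11.5 and E12.5, and of 2 genes that did not pass the test at E16.5 (Pola1 and Tk1). Each runs 5′ to 3′ along the gene's own strand, in lower case, with E2F matches on either strand in capitals. Overlapping matches run together. The windows are chr16:93883651-93883950 (plus strand) for Chaf1b, chr17:56040166-56040465 (plus strand) for Chaf1a, chr5:151651159-151651458 (minus strand) for Rfc3, chr1:128359656-128359955 (minus strand) for Mcm6, chr1:93801885-93802184 (minus strand) for Dtymk, chrX:93632106-93632405 (minus strand) for Pola1 and chr11:117825965-117826264 (minus strand) for Tk1.
Chaf1b: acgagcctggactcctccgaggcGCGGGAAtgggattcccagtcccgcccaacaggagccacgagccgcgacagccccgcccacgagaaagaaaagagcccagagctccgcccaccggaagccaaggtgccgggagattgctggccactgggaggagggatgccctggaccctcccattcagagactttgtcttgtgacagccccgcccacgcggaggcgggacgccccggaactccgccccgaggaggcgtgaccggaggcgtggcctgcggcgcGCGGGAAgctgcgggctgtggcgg
Chaf1a: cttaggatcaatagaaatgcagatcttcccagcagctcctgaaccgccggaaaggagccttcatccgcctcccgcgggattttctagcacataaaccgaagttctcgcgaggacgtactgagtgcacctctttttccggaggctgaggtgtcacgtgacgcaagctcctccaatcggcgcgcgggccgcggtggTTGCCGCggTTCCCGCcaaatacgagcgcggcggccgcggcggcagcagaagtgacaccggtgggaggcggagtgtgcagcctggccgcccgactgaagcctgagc
Rfc3: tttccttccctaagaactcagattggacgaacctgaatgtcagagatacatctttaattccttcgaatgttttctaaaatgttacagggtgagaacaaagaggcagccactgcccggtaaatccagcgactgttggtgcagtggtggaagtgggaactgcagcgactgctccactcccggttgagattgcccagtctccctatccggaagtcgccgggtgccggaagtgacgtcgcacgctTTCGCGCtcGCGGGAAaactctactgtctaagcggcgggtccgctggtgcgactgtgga
Mcm6: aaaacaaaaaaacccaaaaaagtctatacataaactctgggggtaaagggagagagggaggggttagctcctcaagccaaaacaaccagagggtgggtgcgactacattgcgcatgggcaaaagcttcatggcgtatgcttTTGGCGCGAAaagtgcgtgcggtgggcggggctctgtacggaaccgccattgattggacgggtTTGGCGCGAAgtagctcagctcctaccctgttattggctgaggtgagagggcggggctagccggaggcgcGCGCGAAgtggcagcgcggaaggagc
Dtymk: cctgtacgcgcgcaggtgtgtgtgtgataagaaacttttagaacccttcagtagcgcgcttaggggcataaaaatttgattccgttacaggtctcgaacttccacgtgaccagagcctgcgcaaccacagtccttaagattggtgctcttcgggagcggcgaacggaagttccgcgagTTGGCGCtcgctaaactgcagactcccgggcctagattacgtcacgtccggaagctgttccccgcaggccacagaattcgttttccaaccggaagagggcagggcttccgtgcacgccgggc
Pola1: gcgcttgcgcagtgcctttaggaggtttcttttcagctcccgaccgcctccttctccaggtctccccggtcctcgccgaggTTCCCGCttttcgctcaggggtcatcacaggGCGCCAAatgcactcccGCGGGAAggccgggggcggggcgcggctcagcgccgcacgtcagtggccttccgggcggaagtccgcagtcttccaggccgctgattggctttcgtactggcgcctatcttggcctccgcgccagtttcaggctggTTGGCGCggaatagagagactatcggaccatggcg
Tk1: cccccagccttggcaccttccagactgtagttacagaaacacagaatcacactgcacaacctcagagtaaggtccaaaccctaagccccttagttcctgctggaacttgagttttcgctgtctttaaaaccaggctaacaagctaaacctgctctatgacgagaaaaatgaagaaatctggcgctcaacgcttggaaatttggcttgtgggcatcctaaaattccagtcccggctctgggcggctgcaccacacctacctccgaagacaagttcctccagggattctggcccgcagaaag
Mcm6 held 5 matches, Pola1 held 4, Chaf1a, Chaf1b and Rfc3 held 2 each, Dtymk held 1 and Tk1 held 0. Pola1 carried more matches than Chaf1b, the gene with the largest fall of all 43 from E12.5 to E16.5. Both were picked for printing by their changes, and a link between matches and the size of a fall was not tested. Between E12.5 and E16.5 the 25 genes with a match had a median log2 change of -0.91 (from -1.42 to -0.28), and the 10 genes with a window and no match had -0.64 (from -0.90 to -0.26). These ranges overlap over nearly the whole span of the second.

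The step to E16.5 spans the change of the folds into a muscular sheet. Replication genes were lower in the diaphragm across every step of the process. Of the 43 genes, 40 fell at E16.5 relative to E12.5, 0 rose (also without adjustment), and 3 missed the threshold (limma, Benjamini-Hochberg adjusted p below 0.05), where 15.6% of all genes tested were lower at this step. The median log2 change of the 43 was -0.74, a 1.67-fold lower level, against -0.02 over all genes. All 43 changes were negative, from -1.42 for Chaf1b to -0.26 for Rfc5, and 10 genes were 2-fold lower or more. In 23 of them every E16.5 array lay below every E12.5 array, where 5.4% of all genes did so. In tissue samples of this kind, fewer cells of a type and less RNA per cell cannot be told apart.

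**Figure D2:**
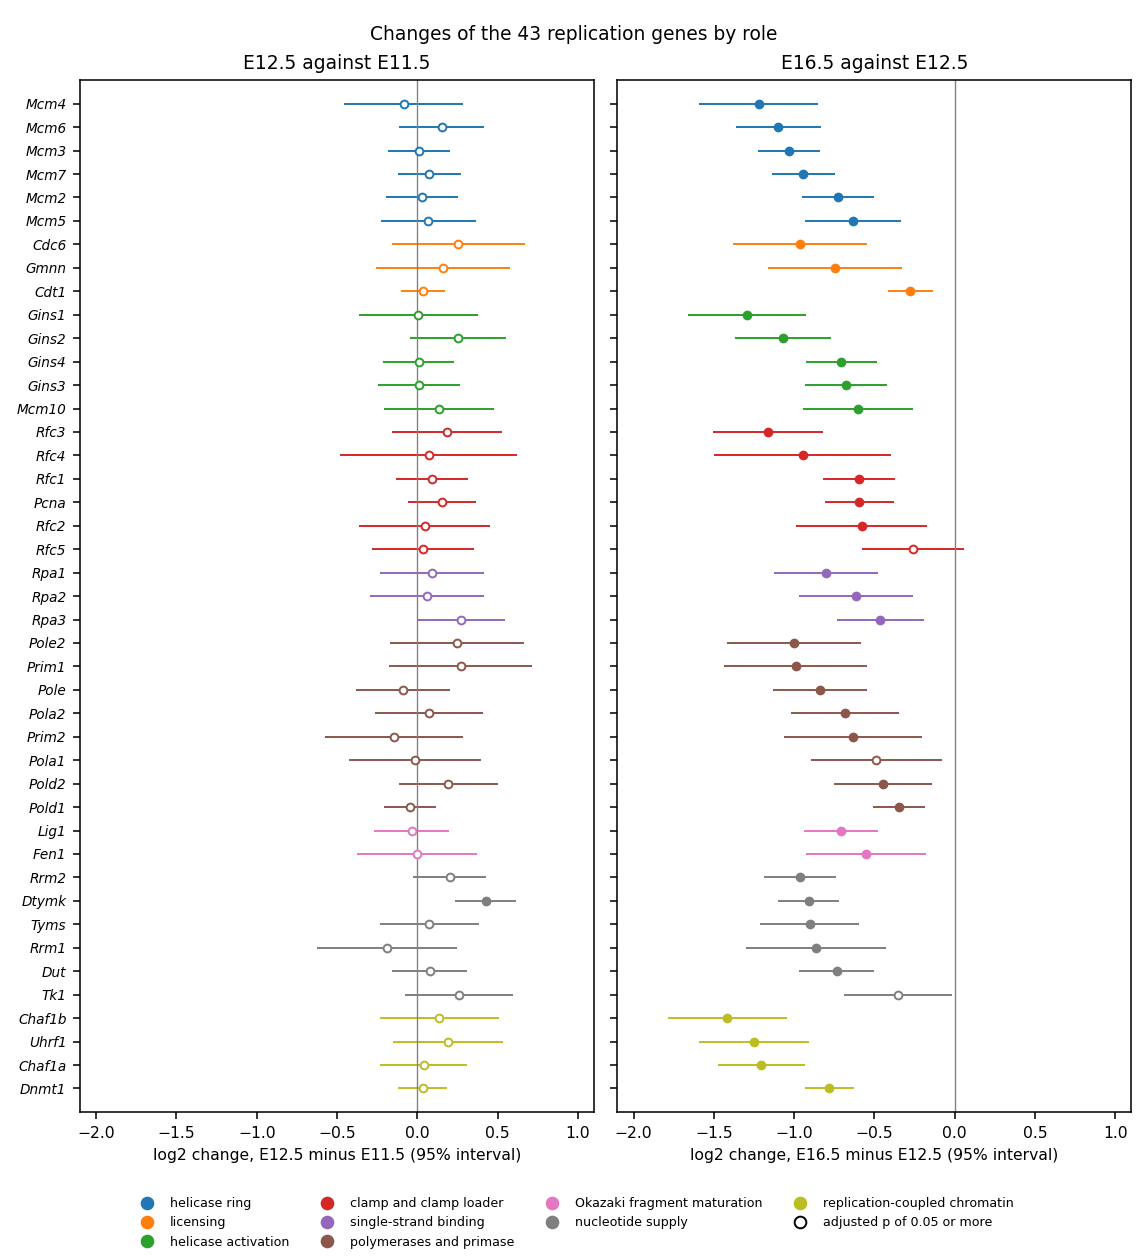
log2 change of each of the 43 genes with its 95% interval, coloured by role, for E12.5 minus E11.5 and for E16.5 minus E12.5; filled points passed an adjusted p of 0.05. At the first step 1 gene passed, Dtymk, and at the second 40 lay lower past the threshold.

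The helicase ring fell as a whole, with 6 of 6 subunits lower at E16.5 and a median log2 change of -0.99. Mcm4, a core subunit of the ring, read 9.31, 9.66 and 10.23 at E11.5 (lowest, median and highest array), 9.35, 9.58 and 9.91 at E12.5, and 7.48, 8.45 and 9.07 at E16.5. Every E16.5 array was below every fold array, and the E16.5 arrays were spread the most. Its log2 change was -1.22 ± 0.18 against E12.5 (SE; adjusted p = 9.05e-06), or 2.33-fold lower. Mcm5 changed least in the ring: it read 9.31, 9.86 and 10.03 at E11.5, 9.50, 9.82 and 10.12 at E12.5, and 8.44, 9.25 and 9.61 at E16.5. Its stages overlapped, and its change was -0.63 ± 0.14 (adjusted p = 0.00151, and 0.0539 without E16.5 replicates 1 to 4). The other subunits lay between, with Mcm2 at -0.72, Mcm7 at -0.94, Mcm3 at -1.03 and Mcm6 at -1.10.

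Licensing factors fell in 3 of 3 genes past the threshold, with log2 changes from -0.96 to -0.28. Cdc6, the ATPase that helps to load the ring, read 7.37, 8.18 and 8.80 at E11.5, 7.95, 8.42 and 8.95 at E12.5, and 6.78, 7.40 and 7.97 at E16.5. The highest E16.5 array reached into the E12.5 range, more reached into that of E11.5, and the change was -0.96 ± 0.20 (adjusted p = 0.000635). Cdt1, its partner in loading, read 7.53, 7.67 and 7.91 at E11.5, 7.56, 7.70 and 7.94 at E12.5, and 7.30, 7.44 and 7.62 at E16.5. The stages overlapped, and this was the smallest fall that passed the test, -0.28 ± 0.07 (adjusted p = 0.00285, and 0.0524 without E16.5 replicates 5 to 8). Its 95% interval, -0.42 to -0.14, lies wholly above that of Cdc6, -1.38 to -0.55. Both genes were picked as the largest and smallest changes of their role at E16.5 against E11.5. That choice favours a gap, and no test compared the genes. Cdt1 was also dim, below the array median on 6 of 8 E16.5 arrays. Geminin (Gmnn), the inhibitor that holds Cdt1 back after S phase begins, had -0.74.

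Helicase activation was lower in 5 of 5 genes. Gins1, a subunit of the GINS complex, read 9.26, 9.43 and 10.06 at E11.5, 8.84, 9.70 and 9.99 at E12.5, and 7.55, 8.30 and 8.88 at E16.5. At E12.5 its lowest array sat within the range of E16.5, and the change was -1.29 ± 0.18 (adjusted p = 3.78e-06). The other GINS subunits were lower by less: Gins2 had -1.07, Gins4 -0.71 and Gins3 -0.68. Mcm10, which helps the loaded ring to start, read 7.76, 8.21 and 8.77 at E11.5, 7.998, 8.22 and 9.12 at E12.5, and 7.11, 7.80 and 8.24 at E16.5. The groups overlapped, with a change of -0.60 ± 0.17 (adjusted p = 0.00787, and 0.104 without E16.5 replicates 1 to 4).

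Of the sliding clamp and the 5 subunits of its loader, 5 of 6 fell. Rfc3, a small loader subunit, read 9.18, 10.10 and 10.50 at E11.5, 9.89, 10.30 and 10.53 at E12.5, and 8.72, 9.03 and 9.48 at E16.5. No E16.5 array reached the E12.5 range, and the change was -1.16 ± 0.17 (adjusted p = 5.75e-06). Rfc5, another small subunit of the same complex, read 9.08, 9.36 and 9.95 at E11.5, 9.10, 9.45 and 10.04 at E12.5, and 8.69, 9.11 and 9.89 at E16.5. Its stages overlapped almost fully, and a change of -0.26 ± 0.15 was not past the threshold (adjusted p = 0.245, and 0.0423 without E16.5 replicates 5 to 8; 95% interval -0.58 to 0.06). That interval lies wholly above the interval of Rfc3, -1.51 to -0.82. Rfc3 and Rfc5 were picked as the largest and smallest changes of their role at E16.5 against E11.5. Such a choice itself favours a gap, and no test compared the genes. Pcna, the clamp itself, had -0.59 with the probe set used and -0.92 with its other one.

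Single-strand binding protein RPA was lower in 3 of 3 subunits. Rpa1, the large subunit that holds the DNA, read 8.53, 9.34 and 9.53 at E11.5, 8.90, 9.30 and 9.47 at E12.5, and 8.06, 8.30 and 9.04 at E16.5. Its change was -0.80 ± 0.16 (adjusted p = 0.000331), although 1 E16.5 array reached the E12.5 range. Rpa3, the smallest subunit, read 8.12, 8.76 and 9.12 at E11.5, 8.75, 8.95 and 9.22 at E12.5, and 8.19, 8.50 and 8.75 at E16.5. Its E16.5 arrays were all lower than its E12.5 arrays, by the narrowest of margins, while its E11.5 arrays spanned both. The change was -0.46 ± 0.13 (adjusted p = 0.00970, and 0.143 without E16.5 replicates 1 to 4).

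Among polymerases and primase, 7 of 8 fell, with a median log2 change of -0.66. Pole, the catalytic subunit of the leading-strand polymerase epsilon, read 8.21, 8.59 and 9.12 at E11.5, 8.05, 8.60 and 8.78 at E12.5, and 7.29, 7.65 and 8.21 at E16.5. Its E16.5 arrays were below all E11.5 arrays and all but 1 of the E12.5 arrays, with a change of -0.84 ± 0.14 (adjusted p = 5.71e-05). Pold2, the accessory subunit of polymerase delta, read 8.68, 9.31 and 9.65 at E11.5, 9.17, 9.37 and 9.73 at E12.5, and 8.49, 8.93 and 9.75 at E16.5. The highest single array of all was an E16.5 one, and the change was -0.44 ± 0.15 (adjusted p = 0.0262). That call ended without any 1 of 5 arrays, E12.5 replicates 1, 4 and 8 and E16.5 replicates 3 and 5 (adjusted p up to 0.0645), and without E16.5 replicates 5 to 8 (0.203). Prim1 and Prim2, the primase subunits, had -0.99 and -0.63. Pola1, the catalytic subunit of polymerase alpha, had -0.49 and did not pass (adjusted p = 0.0722), and its E16.5 arrays were divided as described below.

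Both enzymes that finish the lagging strand were lower. Lig1, the replicative DNA ligase, read 9.33, 9.67 and 9.88 at E11.5, 9.35, 9.66 and 9.82 at E12.5, and 8.45, 8.80 and 9.32 at E16.5, with no overlap between E16.5 and either fold stage. The fall was -0.71 ± 0.11 (adjusted p = 2.32e-05). Fen1, the flap endonuclease, read 7.52, 7.83 and 8.38 at E11.5, 7.25, 7.77 and 8.69 at E12.5, and 6.88, 7.37 and 7.81 at E16.5. Here the stages overlapped widely, with -0.55 ± 0.18 (adjusted p = 0.0247). The call ended when any 1 of 5 arrays was left out, E12.5 replicates 2 and 6 and E16.5 replicates 1, 2 and 4 (adjusted p up to 0.0572), and without E16.5 replicates 1 to 4 (0.422).

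Nucleotide supply was lower in 5 of 6 genes, with a median log2 change of -0.88. Rrm1, the large subunit of ribonucleotide reductase, read 9.87, 10.68 and 11.33 at E11.5, 10.36, 10.50 and 10.74 at E12.5, and 8.89, 9.85 and 10.41 at E16.5. E12.5 arrays lay close together while the other stages spread over more than a log2 unit, and the change was -0.86 ± 0.21 (adjusted p = 0.00273, and 0.188 without E16.5 replicates 1 to 4). Rrm2, the small subunit made in S phase, had -0.96, and Tyms and Dut, which make thymidylate and its dUMP precursor, had -0.90 and -0.73. Thymidine kinase Tk1, the salvage enzyme, read 9.08, 9.68 and 10.14 at E11.5, 9.67, 9.88 and 10.36 at E12.5, and 8.98, 9.63 and 9.97 at E16.5. The 3 stages overlapped, and its change of -0.35 ± 0.16 was not past the threshold (adjusted p = 0.118). A further probe set of Tk1 had -0.24.

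The chromatin genes that follow the fork had the lowest median log2 change of the 9 roles, -1.23, with 4 of 4 lower. Chaf1b, a subunit of the histone chaperone CAF-1, read 8.08, 8.59 and 9.58 at E11.5, 8.24, 8.79 and 9.17 at E12.5, and 6.88, 7.41 and 7.62 at E16.5. Each E16.5 array lay below all 16 fold arrays, and the change of -1.42 ± 0.18 (adjusted p = 1.11e-06) is 2.67-fold. Chaf1a, the large subunit of the same chaperone, read 9.49, 9.64 and 10.00 at E11.5, 9.64, 9.68 and 9.94 at E12.5, and 7.88, 8.51 and 9.01 at E16.5. It too had no overlap (-1.20 ± 0.13, adjusted p = 1.09e-07). Uhrf1, which recognises half-methylated DNA behind the fork, read 9.96, 10.66 and 11.503 at E11.5, 10.43, 10.81 and 11.20 at E12.5, and 9.11, 9.64 and 9.94 at E16.5. All E16.5 arrays lay below all fold arrays, and the change was -1.25 ± 0.17 (adjusted p = 2.18e-06). Dnmt1, the maintenance methyltransferase that works with Uhrf1, read 10.59, 10.71 and 11.01 at E11.5, 10.69, 10.76 and 10.87 at E12.5, and 9.74, 9.95 and 10.28 at E16.5. Again no fold array was as low as any E16.5 array. Its fall of -0.78 ± 0.07 was smaller, and had the smallest standard error of these 4 (adjusted p = 9.22e-09).

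**Figure D3:**
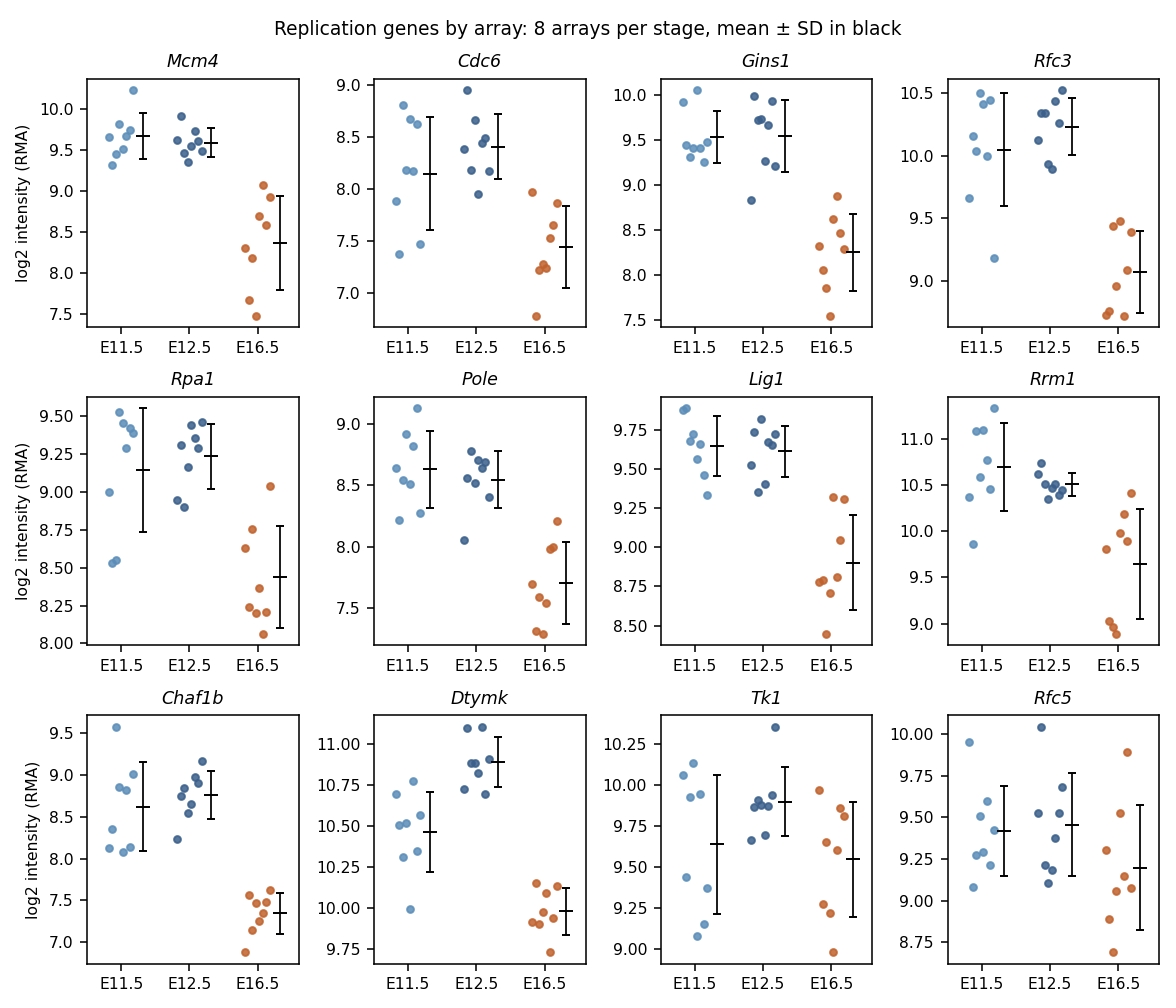
log2 intensity on each array at E11.5, E12.5 and E16.5 for 12 of the genes, with the mean and SD in black; the vertical scale differs between panels. For Chaf1b the E16.5 arrays reach 7.62 at most and the fold arrays start at 8.08, whereas for Rfc5 the 3 stages overlap.

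Within the folds, from E11.5 to E12.5, the replication genes changed little. In limma's test 1 of the 43 rose, where 0.331% of all genes did, and 0 fell, where 0.0568% did. Without adjustment 2 of the 43 were higher and 0 lower, where 1214 of all 19351 genes were higher and 1575 lower. The median log2 change was 0.07, against -0.03 over all genes, and the range was -0.19 (Rrm1) to 0.43 (Dtymk). Of the 43 changes, 35 were above 0 and 8 below. The gene that rose, Dtymk, encodes thymidylate kinase, which makes dTDP from thymidylate. It read 10.00, 10.51 and 10.77 at E11.5, 10.69, 10.89 and 11.11 at E12.5, and 9.73, 9.96 and 10.15 at E16.5. It was thus highest at E12.5, with 0.43 ± 0.09 against E11.5 (adjusted p = 0.0386) and -0.91 ± 0.09 for E16.5 against E12.5 (adjusted p = 3.68e-08). The first of these calls ended when any 1 of 12 arrays was left out (E11.5 replicates 2, 3, 5, 7 and 8, E12.5 replicates 1, 3, 4, 5, 6 and 8, and E16.5 replicate 7), with adjusted p from 0.0512 to 0.0807. It also ended without E16.5 replicates 1 to 4 (0.0731) and without replicates 5 to 8 (0.0669), which enter only the shared estimate of spread. At the same step 4 of 12 skeletal muscle markers and 6 of 10 hepatocyte markers rose, and their part in the rise of Dtymk was not tested.

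The comparison of E16.5 with E11.5 shares its arrays with both others and gives the change over the whole interval. Here 38 of 43 genes fell and 0 rose, where 19.6% of all genes were lower, and the median log2 change was -0.71, against -0.08 over all genes. The 5 not past the threshold were Rfc5 (-0.22), Rpa3 (-0.19), Pola1 (-0.50), Pold2 (-0.25) and Tk1 (-0.09). Without E16.5 replicate 1, Pold2 passed (adjusted p = 0.0370). The call on Mcm10 (-0.47, adjusted p = 0.0334) ended without any 1 of 6 arrays, E11.5 replicates 2, 4, 6 and 7 and E16.5 replicates 2 and 6 (adjusted p up to 0.0787), and without E16.5 replicates 1 to 4 (0.220). Leaving out replicates 1 to 4 gave 26 genes lower (median log2 change -0.57) and also ended the calls on Cdc6 (adjusted p = 0.0912), Mcm5 (0.0997) and Fen1 (0.346). Leaving out replicates 5 to 8 gave 36 genes lower (-0.88) and ended the call on Cdt1 (0.0947). Of all 19351 genes, 2297 were lower without replicates 1 to 4 and 2963 without replicates 5 to 8, against 3799 with every array. In 14 of the 38 no E16.5 array reached the E11.5 range, where 3.86% of all genes lay wholly lower.

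Whether the later change differed from the earlier one was tested directly, as the change from E12.5 to E16.5 minus that from E11.5 to E12.5, without regard to the unequal lengths of these intervals. The later change was lower in 26 of 43 genes and higher in 0, where 6.26% of all genes were lower by this test. The median difference was -0.76. The same E12.5 arrays enter both changes with opposite sign, so a high reading at E12.5 by itself lowers the difference. Dtymk was named for its rise at E12.5, and its result in this test draws on those same values. Chaf1b (-1.55 ± 0.31, adjusted p = 0.00165), Dtymk (-1.34 ± 0.16, adjusted p = 4.77e-06) and Dnmt1 (-0.81 ± 0.13, adjusted p = 0.000120) passed, as did all 4 chromatin genes and 5 of 6 ring subunits. Of these subunits, Mcm4 did not pass without E16.5 replicates 1 to 4 (adjusted p = 0.0548). Without the same replicates the calls also ended on Cdc6 (0.0790), Rpa1 (0.0813), Lig1 (0.147) and Rpa3 (0.148), which had passed with every array. The calls on Cdc6, Rpa1, Lig1 and Rpa3 ended in 5, 12, 8 and 17 alternative settings, in that order. Among polymerases and primase 2 of 8 passed. Pole missed narrowly (-0.75 ± 0.25, adjusted p = 0.0501) and passed in 12 alternative settings, among them without E16.5 replicates 5 to 8 (0.00697). Neither Rrm1 (-0.68 ± 0.37, adjusted p = 0.268) nor Mcm5 (-0.70 ± 0.25, adjusted p = 0.0751) passed. Mcm5 passed without E16.5 replicate 6 or replicate 8 (adjusted p of 0.0496 and 0.0466). Without E16.5 replicates 5 to 8 both Mcm5 (0.0130) and Rrm1 (0.0183) passed. Over the 43 genes the count was 15 without E16.5 replicates 1 to 4 and 31 without replicates 5 to 8. Of all 19351 genes, 737 and 1427 were lower in these fits, against 1212 with every array.

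Array by array, the mean over the 43 genes was 9.24 to 9.53 at E11.5, 9.36 to 9.73 at E12.5 and 8.41 to 9.03 at E16.5. The E16.5 arrays were lower than every fold array and spread the widest. Replicates 1 to 4 of E16.5 ran from 8.41 to 8.68 and replicates 5 to 8 from 8.79 to 9.03. In 10 of the 43 genes (23.3%) every array of replicates 1 to 4 was below every array of replicates 5 to 8, where 5.14% of all genes were so ordered. The 10 were Mcm4, Gmnn, Pcna, Rfc4, Pola1, Pole2, Lig1, Rrm1, Rrm2 and Dnmt1. The order was reversed in 0 of the 43, and in 1244 of all 19351 genes. Pola1 read 7.94 to 8.56 in replicates 1 to 4 and 9.06 to 9.81 in replicates 5 to 8, the second of which matches its range at E12.5, 9.05 to 9.76. In the other direction, 8 of the 43 had a higher mean in replicates 1 to 4, among them Pola2 by 0.36, Gins2 by 0.21 and Pold2 by 0.18. The mean was lower in replicates 1 to 4 in 35 of the 43, and in 9284 of all 19351 genes. These sets were seen in the data and are not groups of the study, so no test is given. Against E12.5, 29 genes fell without replicates 1 to 4 (median log2 change -0.59) and 39 without replicates 5 to 8 (-0.92). Of all 19351 genes, 1945 and 2647 were lower in these fits, against 3018 with every array.

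**Figure D4:**
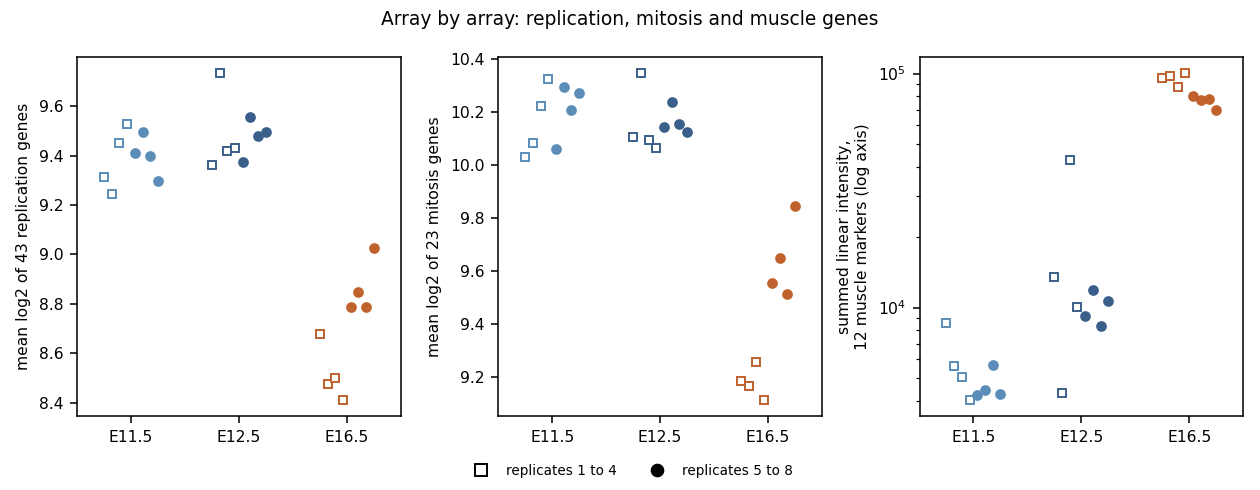
Mean log2 intensity of the 43 replication genes and of 23 mitosis genes, and the summed linear intensity of 12 skeletal muscle markers on a log axis, for each array at E11.5, E12.5 and E16.5. Open squares are replicates 1 to 4 and filled circles replicates 5 to 8; at E16.5 the squares are the lower set for replication (8.41 to 8.68) and the higher set for muscle.

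Markers of other cells moved over the same stages. At E16.5 against E12.5, 2223 of the 19351 genes tested rose and 3018 fell. Skeletal muscle markers rose in 10 of 12 genes at E16.5 against E12.5 and fell in 1 (Myod1), and their summed linear intensity was 4030 to 8570 at E11.5, 4312 to 42765 at E12.5 and 69904.5 to 100333 at E16.5. Within E16.5 that sum was 87712.5 to 100333 in replicates 1 to 4 and 69904.5 to 79913 in replicates 5 to 8. Red cell markers fell in 3 of 10 genes, all of them embryonic globins, with sums of 28549 to 37314, 21262 to 36532 and 2179 to 7510 over the 3 stages. Of these markers the E16.5 sum was 2179 to 3491 in replicates 1 to 4 and 4758 to 7510 in replicates 5 to 8. Hepatocyte markers rose in 10 of 10, with sums of 1280 to 1791, 3369 to 58160 and 13377.5 to 51602. Endothelial markers rose in 6 of 8 (2372 to 3473, 2150 to 3209 and 3226 to 7020), and at E16.5 their sum was 5599 to 7020 in replicates 1 to 4 and 3226 to 4079 in replicates 5 to 8.

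E12.5 replicate 2 had both the highest hepatocyte sum and the highest mean of the 43 replication genes, 9.73. Fold mesenchyme markers rose in 3 and fell in 5 of 10, macrophage markers rose in 1 of 8, and neuron markers fell in 3 of 10. Elavl4 and Snap25, both neuronal, were below the lower quartile on all 8 arrays of each stage, and the hepatocyte genes Ahsg and Serpina6 on all 8 at E11.5. The part of these other cells in the fall of the replication genes was not tested. Without E12.5 replicates 2 and 4, the arrays with most liver transcript, 38 of 43 genes were lower at E16.5 against E12.5 (median log2 change -0.71).

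Genes of neighbouring functions gave the following at E16.5 against E12.5. Of 31 other origin and fork genes, 21 fell and 1 rose, with a median log2 change of -0.59. Nasp, a histone chaperone, had -1.22, Orc1, the largest subunit of the origin recognition complex, -1.06, and Dbf4, the activator of the Cdc7 kinase, -1.04. Against these, Pold4, the smallest subunit of polymerase delta, rose by 0.62 (adjusted p = 0.0457). Other nucleotide synthesis genes fell in 11 of 21 and rose in 0, with a median of -0.30. Umps, the last enzyme of UMP synthesis, had -1.29, Dctd, which makes dUMP, -1.08, and Adss, a synthase of the AMP branch, -0.82. S-phase regulators fell in 11 of 16 and rose in 1, with a median of -0.43. The phosphatase Cdc25a had -1.17, cyclin E1 (Ccne1) -0.97 and E2f5 -0.93, while E2f6 rose by 0.62. E2f1 and E2f2, activators of S-phase genes that were singled out after their values were seen, had -0.19 and 0.06 and did not pass.

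Cell cycle brakes had a median of 0.29, with 3 of 7 higher, 0 lower and 4 not past the threshold. Over all genes, 2223 of 19351 were higher at this step. The brakes' changes ran from -0.41 to 1.30. Rb1, the retinoblastoma protein that restrains E2F, rose by 1.30 ± 0.21, the CDK4 and CDK6 inhibitor Cdkn2c by 1.13 and the CDK inhibitor Cdkn1b by 0.51. Mitosis genes fell in 23 of 23, with a median of -0.75, beside -0.74 for the replication genes. The checkpoint genes Bub1, Bub1b and Ttk had the largest falls of the list, -1.38, -1.08 and -1.04. In limma's test 0 genes of these 5 lists passed between E11.5 and E12.5, where 64 of all 19351 genes were higher and 11 lower. Without adjustment, 4 origin and fork genes, 4 nucleotide synthesis genes, 3 S-phase regulators, 2 brakes and 0 mitosis genes were higher. Lower without adjustment were 1 origin and fork gene and 1 S-phase regulator. Of all 19351 genes, 1214 were higher and 1575 lower without adjustment.

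**Figure D5:**
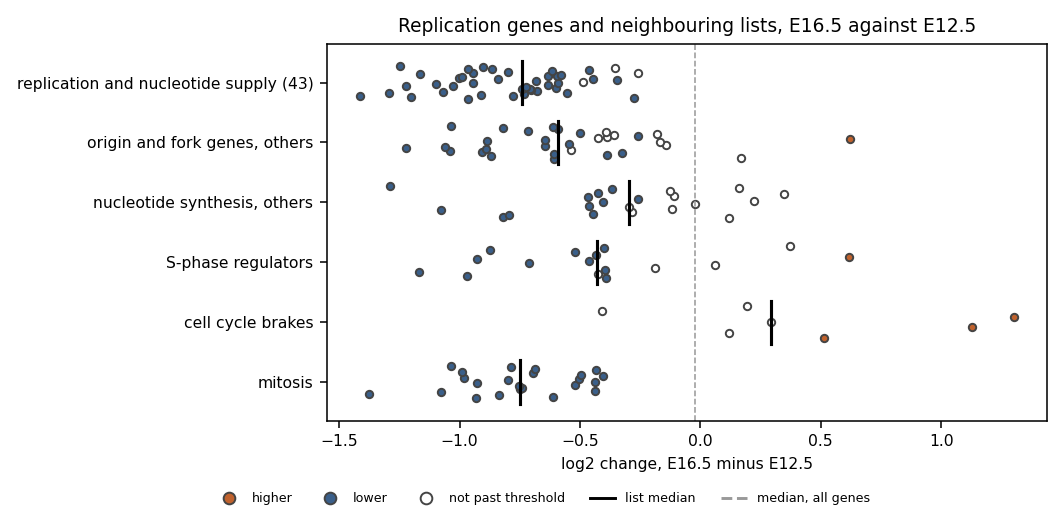
log2 change at E16.5 minus E12.5 of each gene in the replication set and in 5 neighbouring lists; blue points were lower and orange points higher past the threshold, bars are list medians and the dashed line is the median of all genes (-0.02). The replication (-0.74) and mitosis (-0.75) medians lie to the left and that of the brakes (0.29) to the right.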

How the data were processed

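RNA from laser-captured tissue was amplified and biotin-labelled with NuGEN kits, per the labels' protocols. The deposited table holds log2 values for 24200 probe sets; the log2 scale was read from its range. The submitters' processing notes name RMA, Affymetrix Expression Console 1.1 and R 2.9.2 without roles, and whether the authors normalized all arrays together is not given in the sources used here. Gene symbols came from the platform annotation: 20760 probe sets had 1 symbol, 1140 several and 2300 none. Probe sets with 1 symbol gave 19351 genes, 804 of them with several, of which the brightest was kept. limma 3.58.1 in R 4.3.3 fitted 1 coefficient per stage over all 24 arrays, with Benjamini-Hochberg adjustment over all 19351 genes, a threshold of 0.05 and two-sided tests; the code was tested on simulated data. Precision is limited by 8 arrays per stage. The members, lists and tests were chosen with earlier results of these data known. Genes are named with full values where, within a role, they had the largest called or the smallest change of E16.5 against E11.5, where they were called at the first step, or where they were among the 5 largest falls. From each neighbouring list up to 3 called genes with the largest change, and any called against its majority, are named. Equal replicate numbers did not mark related arrays: over 24 same-numbered pairs, deviations from stage means correlated at -0.28 to 0.09. No 2 arrays held the same values (highest correlation 0.988). Promoter windows came from RefSeq.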

Additional observations from a re-analysis of the deposited data

Results flagged for a closer look

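Of 66 series of 8 arrays examined for a single array standing apart (Dixon's test at 95%), 3 had one, about what chance gives at 1 in 20. All were the highest E12.5 array of a gene. Mcm10 read 9.12 on E12.5 replicate 2, with the next array at 8.39. Tk1 read 10.36 on E12.5 replicate 8, with the next at 9.94. Chaf1a read 9.94 on E12.5 replicate 6, with the next at 9.73.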

How the results depend on the processing

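Over 37 alternative settings, the 21 genes given with full values had 2347 recomputed changes, of which 2233 kept direction and side of the threshold, 94 lost the threshold, 20 gained it and 0 reversed. The single gene called higher between E11.5 and E12.5 became 0 with only the compared stages fitted, with quantile normalization again, with arrays centred on the median or the 75th percentile, with array weights, without E12.5 replicates 2 and 4, and without either set of 4 E16.5 arrays. With the replicate number as a block it was also 0, the genes lower at E16.5 were 40 against E12.5 and 38 against E11.5, and 22 were lower for the later against the earlier change. That last count was 15 without E16.5 replicates 1 to 4. Leaving out each array in turn gave 0 to 1 genes higher at E12.5, 37 to 41 lower at E16.5 against E12.5 (medians -0.79 to -0.70), 35 to 39 against E11.5 (-0.77 to -0.67) and 21 to 28 for the later against the earlier change, and the median between E11.5 and E12.5 was 0.02 to 0.11.

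Over all genes, the 75 called between E11.5 and E12.5 became 9 with only those stages, 43 with the replicate block, 49 with quantile normalization, 120 with array weights, 114 without E12.5 replicates 2 and 4, and 32 and 34 without E16.5 replicates 1 to 4 and 5 to 8. Without replicates 1 to 4, the 5241 called at E16.5 against E12.5 became 3479, the 6479 against E11.5 became 4265, and the 2086 for the later against the earlier change became 1283. Centring on the 75th percentile moved the median of all genes for that last comparison to 0.14, against 0.02, and the share of lower calls to 36%, against 58.1%; for E12.5 against E11.5 that share was 48.4%, against 14.7%. No protein sequences were used, so the planned search for PCNA-binding boxes was not run. The arrays give relative levels, and no level was compared between genes.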
